A study of Mus musculus with 6 samples.

Results

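Splicing factors, hnRNPs and snRNP proteins were followed in RVP3 cells, a murine tumour cell line of C57BL/6 background grown in vitro, after treatment with 2 epigenetic agents. The genes were chosen by name: every probe whose platform gene symbol began with Sf3, Sfrs, Srsf, Hnrn, Hnrp, Snrp, Prpf or U2af, or with Lsm or Rbm followed by a digit. This gave 160 probes of 89 genes, out of 16760 probes and 8734 named genes tested. RNA was measured on 6 Illumina bead arrays, with 3 cultures of untreated control cells and 3 of DAC/TSA cells. Control and DAC/TSA cells both had 24 h in fresh medium. The DAC/TSA cells were then given 3 µM DAC (5-aza-2′-deoxycytidine, an inhibitor of DNA methyltransferases) for 48 h. After that they had 30 ng/ml TSA (trichostatin A, an inhibitor of histone deacetylases) for 24 h. RVP3 served in the study as the line that does not respond to IFNγ, and no IFNγ was given to any of the 6 cultures. All cultures came from a single line, DAC and TSA were always given together, and no array of either agent alone was analysed here.

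Splicing removes introns from the primary transcript and is carried out by the spliceosome, which is built from small nuclear RNAs and their proteins (snRNPs) and many further factors. SR proteins bind exonic enhancers and mostly promote the use of nearby splice sites, whereas hnRNPs coat nascent RNA and often repress them. U2AF and the SF3a and SF3b complexes mark the 3′ splice site and the branch point, the Sm and LSm proteins form rings around the small nuclear RNAs, and the Prpf proteins are the counterparts of yeast Prp factors.

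The promoters of 4 genes are shown because DAC blocks the methylation of cytosines at CpG dinucleotides and members of these families changed in both directions. They are Rbm15, the gene with the largest decrease, Srsf6, the SR gene with the largest decrease, Lsm10, with the largest increase among the genes detected in both groups, and Rbm11, which was detected only after DAC/TSA. They were picked after their changes were known. Each window is 300 bases of the RefSeq sequence of GRCm38.p6, from 250 bases before to 50 bases after the annotated start, written 5′ to 3′ on the strand of the gene, with each CpG in capitals.
Rbm15 (chr3:107333240-107333539, minus strand): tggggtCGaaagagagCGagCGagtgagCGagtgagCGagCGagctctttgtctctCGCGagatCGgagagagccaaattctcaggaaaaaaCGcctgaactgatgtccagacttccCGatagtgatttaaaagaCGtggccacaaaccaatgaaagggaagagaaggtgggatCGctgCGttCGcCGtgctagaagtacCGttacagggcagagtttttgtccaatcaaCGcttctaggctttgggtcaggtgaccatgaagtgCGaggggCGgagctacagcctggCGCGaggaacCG
Srsf6 (chr2:162931258-162931557, plus strand): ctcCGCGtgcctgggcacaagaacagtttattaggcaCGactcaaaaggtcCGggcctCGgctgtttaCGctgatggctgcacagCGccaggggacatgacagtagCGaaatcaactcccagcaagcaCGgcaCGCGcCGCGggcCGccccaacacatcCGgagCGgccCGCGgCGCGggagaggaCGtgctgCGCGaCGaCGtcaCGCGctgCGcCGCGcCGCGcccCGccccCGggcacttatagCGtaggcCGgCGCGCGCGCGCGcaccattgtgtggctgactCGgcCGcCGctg
Lsm10 (chr4:126096403-126096702, plus strand): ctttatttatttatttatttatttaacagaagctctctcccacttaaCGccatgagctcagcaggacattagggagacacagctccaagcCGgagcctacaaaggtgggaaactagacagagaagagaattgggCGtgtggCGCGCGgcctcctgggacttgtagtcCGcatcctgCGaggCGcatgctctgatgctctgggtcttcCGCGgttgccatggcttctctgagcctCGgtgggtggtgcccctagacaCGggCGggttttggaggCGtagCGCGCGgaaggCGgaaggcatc
Rbm11 (chr16:75592641-75592940, plus strand): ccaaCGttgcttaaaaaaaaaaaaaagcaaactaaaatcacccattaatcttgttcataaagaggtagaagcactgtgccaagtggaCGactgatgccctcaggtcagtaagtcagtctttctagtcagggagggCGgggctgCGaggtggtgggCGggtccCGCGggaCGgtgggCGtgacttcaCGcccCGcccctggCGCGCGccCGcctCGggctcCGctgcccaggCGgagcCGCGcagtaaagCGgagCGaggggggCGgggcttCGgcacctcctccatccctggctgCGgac
The windows of Rbm15, Srsf6, Lsm10 and Rbm11 hold 23, 45, 19 and 25 CpGs, so both directions of change occurred at promoters with many CpGs. Methylation was not measured on these arrays.

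Each control array detected 13227 to 14261 probes (detection p-value of 0.01 or less), and each DAC/TSA array 14101 to 15056. All 89 genes were tested and 83 of them were detected on all 6 arrays with their brightest probe, which stood for the gene. The mean signal was highest, and the median signal lowest, for replicate 3 of each group. Sf3b1, Hnrnpu and Snrpn, which belong to these families, were not analysed here. Of the markers of other cell types, 6 of 12 leukocyte genes were measured, and 4 of them were higher and 1 lower after DAC/TSA. Of 4 measured epithelial genes 2 were higher, of 3 endothelial genes 1 was higher and 1 lower, and of 3 mesenchymal genes 1 was higher. The summed linear signal of the leukocyte markers was 277 to 308 units on the control arrays and 493 to 498 on the DAC/TSA arrays. That of the epithelial markers was 2268 to 2995 against 2521 to 3152, that of the endothelial markers 397 to 442 against 1710 to 1956, and that of the mesenchymal markers 3461 to 3924 against 6288 to 6357. The higher endothelial gene was Egfl7 (log2 change 3.24), while Esam was lower (-0.68) and Kdr did not pass. The higher mesenchymal gene was Fn1 (2.26), while Vim and Sparc did not pass, so these sums do not describe their lists as a whole. Of the leukocyte genes, Laptm5, Cd52, Lyz1 and Lyz2 were detected on 0 control and all 3 DAC/TSA arrays, and Cd79b on all 3 control and 0 DAC/TSA arrays. Each of these genes passed the detection filter only in the group where it was brighter, so the filter fixed its direction. The summed leukocyte signal includes them. Cldn4, one of the higher epithelial genes, was also detected on 0 control and 3 DAC/TSA arrays. The part of the marker genes in the results on splicing genes was not tested.

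Many of the splicing genes had lower expression after DAC/TSA than in control cells, and few had higher expression. Of the 89 genes, 40 (44.9%) were downregulated at an adjusted p below 0.01, against 25.8% of all genes tested, and 7 (7.87%) were upregulated, against 27.0% of all genes. The remaining 42 did not pass the test. The median change of the 89 genes was -0.32 on the log2 scale, against -0.02 over all genes, and 66 of them had a change below zero. A decrease of at least 2-fold that passed the test was seen for 6 of the 89 genes, against 3.82% of all genes, and an increase of that size for 0 of them, against 7.06% of all genes. In a limma fit blocked on the replicate number, 53 genes were lower and 11 higher, against 32.8% and 32.5% of all genes. Median scaling of the arrays in place of quantile normalisation left 18 lower and 2 higher, against 9.33% and 15.3% of all genes. The 27 genes that then did not pass were Hnrnpa0, Hnrnpa1, Hnrnpab, Hnrnpdl, Hnrnpf, Hnrnph3, Hnrnpm, Hnrnpul2, Lsm10, Lsm14a, Prpf8, Prpf18, Prpf38b, Rbm18, Rbm26, Rbm47, Rbm48, Sf3b2, Sf3b3, Sf3b4, Sf3b5, Sf3b6, Snrpb, Snrpd2, Srsf1, Srsf3 and U2af1. The summed linear signal of the 89 genes was 139781 to 143848 units on the control arrays and 105624 to 108001 on the DAC/TSA arrays, without overlap. These are relative values from normalised arrays of bulk RNA, in which less RNA per cell and a different mix of cells cannot be told apart.

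The order of the single arrays gave the same picture. For 50 of the 89 genes every DAC/TSA array lay below every control array, which held for 34.6% of all genes, and for 10 every DAC/TSA array lay above, which held for 34.7% of all genes. Probes other than the brightest add a readout that the counts per gene did not use, from the same arrays. Of all 160 probes, 83 were lower, against 23.4% of all probes tested, and 7 were higher, against 22.4% of all probes. Among the 71 probes that did not stand for their gene, 43 were lower and 0 higher, with a median of -0.51. These 71 were not compared with such probes of all genes, and the shares of all probes are not a matched background for them.

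**Figure D1:**
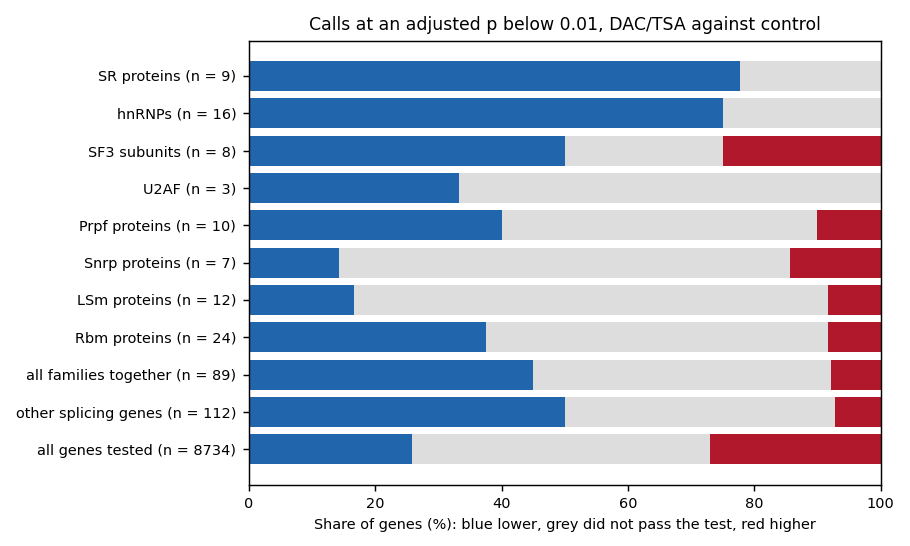
Share of genes (%) that were lower (blue), higher (red) or did not pass the test (grey) after DAC/TSA, for each family, for all families together, for 112 other splicing genes and for all 8734 genes tested; n is the number of genes. The blue share was 44.9% for all families together and 25.8% for all genes.

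The families differed in their counts, although differences between families were not tested. Of 9 SR genes 7 were lower, 0 were higher and 2 did not pass, with a median change of -0.72. Of 16 hnRNP genes 12 were lower, 0 were higher and 4 did not pass, with a median of -0.48. The 8 SF3 genes had 4 lower and 2 higher, the 3 U2AF genes had 1 lower, and the 10 Prpf genes had 4 lower and 1 higher. The shares over all genes were 25.8% lower and 27.0% higher. The U2AF count of lower genes and the SF3 count of higher genes were near these shares. On their brightest probes the Snrp and the LSm genes had few calls in either direction: of 7 Snrp genes 1 was lower and 1 higher (median -0.10), and of 12 LSm genes 2 were lower and 1 higher (median -0.05). Of the Snrp genes that did not pass, Snrpa and Snrpg had a next probe that was lower (-0.46 and -0.86). The next probe of Snrpd1 did not pass. The 24 Rbm genes, which share RNA-binding motifs but have many functions, had 9 lower and 2 higher, with a median of -0.25. In the fit blocked on the replicate number, 8 Prpf genes were lower, as were 2 U2AF, 3 Snrp and 4 LSm genes. In that fit 1 SR, 2 LSm and 4 Rbm genes were higher. Blocking raised the share over all genes as well, to 32.8% lower and 32.5% higher, and the LSm count of lower genes was near that share.

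**Figure D2:**
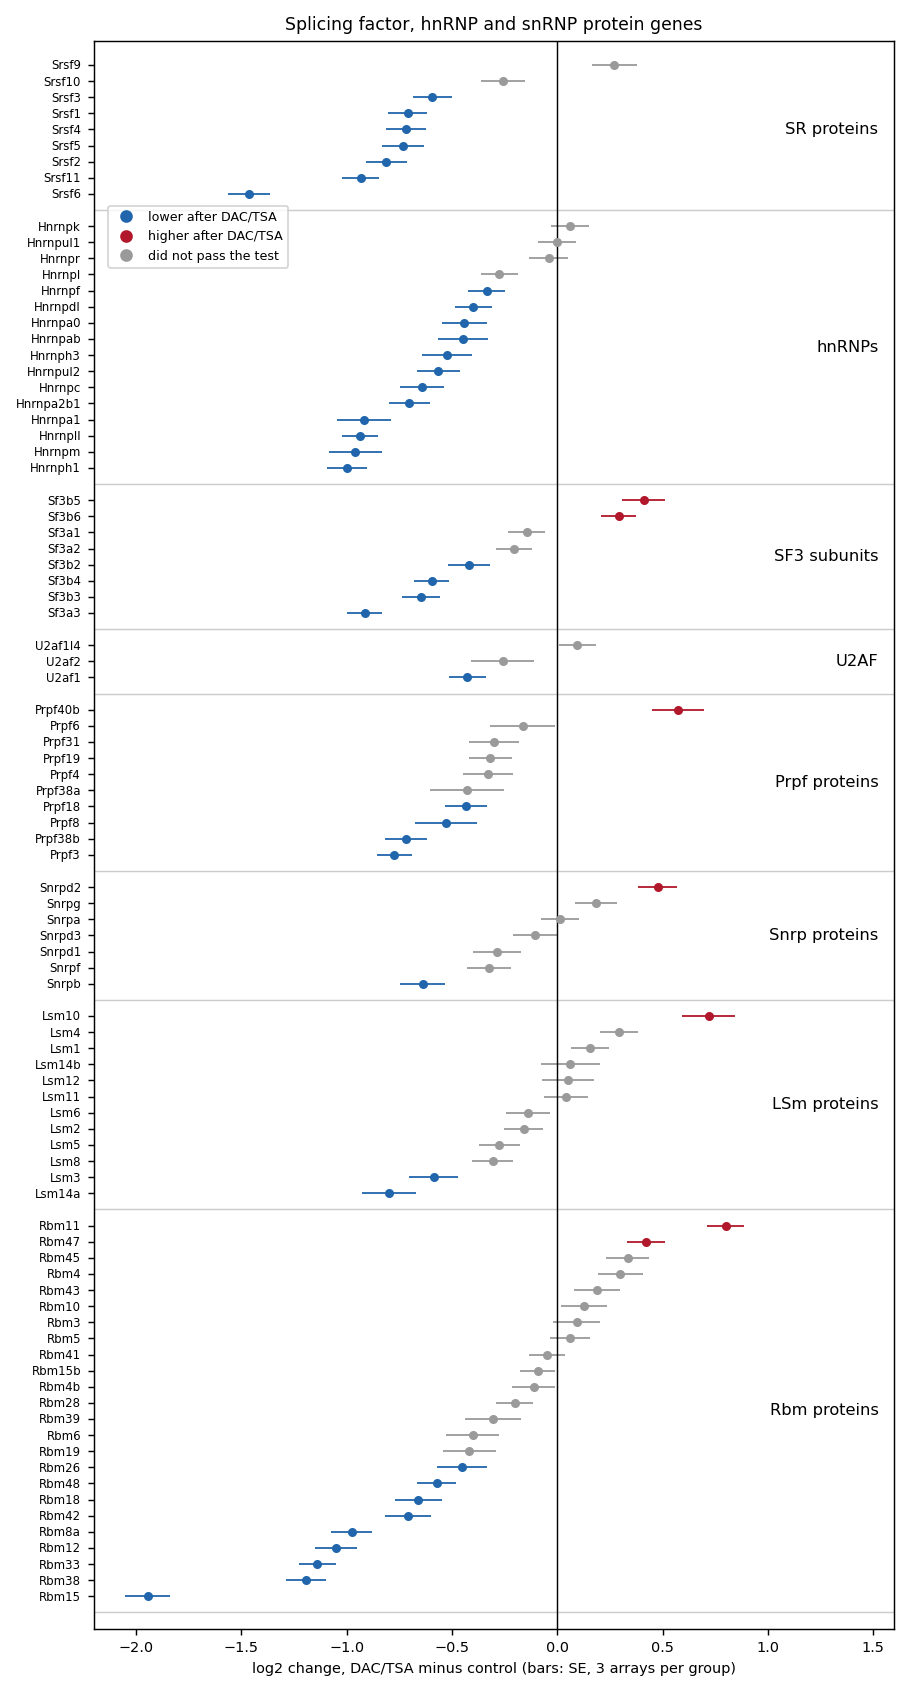
Log2 change (DAC/TSA minus control, x axis) of each of the 89 genes, grouped by family, with SE bars from 3 arrays per group; blue and red points passed the test and grey points did not. The points run from -1.94 for Rbm15 to 0.72 for Lsm10, apart from Rbm11, which was not detected in control cells and whose point has only a bound, and 66 of them lie below zero.

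Among the SR proteins, Srsf6, a regulator of alternative exons, had log2 signals of 11.18, 11.12 and 11.38 on the control arrays and 9.72, 9.67 and 9.90 on the DAC/TSA arrays. It was 2.76-fold lower, a change of -1.46 ± 0.10 (SE, n = 3 per group; adjusted p = 1.48e-07, limma). The groups were far apart, and replicate 3 was the highest array in both. Srsf2, also called SC35 and a component of nuclear speckles, had 12.98, 13.18 and 13.17 in control cells and 12.28, 12.41 and 12.19 after DAC/TSA, a change of -0.81 ± 0.10 (adjusted p = 1.49e-05). Every DAC/TSA array was below every control array. Srsf1, the founding SR protein, which strengthens the choice of 5′ splice sites, went from 12.34, 12.37 and 12.44 to 11.66, 11.56 and 11.80, a change of -0.71 ± 0.09 (adjusted p = 2.93e-05). Srsf11 fell by 0.93 ± 0.09, and Srsf3, the smallest SR protein, with a role in mRNA export, by 0.59 ± 0.09. Srsf4 and Srsf5 also fell, by 0.72 and 0.73. The 2 genes that did not pass lay on opposite sides of zero, with Srsf10, which represses splicing when dephosphorylated, at -0.26 and Srsf9 at 0.27. Srsf9 was higher in the blocked fit.

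The hnRNP genes that passed the test were all lower. Hnrnph1, which binds runs of guanines, had log2 signals of 11.76, 11.67 and 11.56 in control cells and 10.74, 10.71 and 10.53 after DAC/TSA, a change of -1.0001 ± 0.10 (SE, n = 3 per group; adjusted p = 2.21e-06, limma). The groups did not overlap, and replicate 3 was the lowest array of each group. Hnrnpm, which regulates alternative exons during epithelial-mesenchymal transition, had 11.60, 11.71 and 11.99 against 10.65, 10.73 and 11.04 (-0.96 ± 0.12, adjusted p = 3.09e-05). Here replicate 3 was the highest of each group. Hnrnpll, known for its control of Ptprc (CD45) exons in T cells, had 10.12, 10.19 and 10.16 against 9.19, 9.19 and 9.28 (-0.94 ± 0.08, adjusted p = 1.33e-06), with SDs of 0.04 and 0.05 in the control and DAC/TSA groups. Hnrnpa1, a classical repressor of exons, had 8.82, 8.96 and 9.36 against 8.02, 8.23 and 8.15 (-0.92 ± 0.13, adjusted p = 5.64e-05). Its control arrays were spread over more than its DAC/TSA arrays, but none overlapped. Hnrnpa2b1, an hnRNP of RNA transport, had 11.32, 11.30 and 11.25 against 10.67, 10.68 and 10.41 (-0.70 ± 0.10, adjusted p = 4.88e-05).

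The other 7 hnRNP genes that passed were Hnrnpc, which binds uridine tracts, Hnrnpul2, Hnrnph3, Hnrnpab, Hnrnpa0, Hnrnpdl and Hnrnpf, with changes from -0.64 for Hnrnpc to -0.34 for Hnrnpf. The 4 that did not pass were Hnrnpl at -0.27, Hnrnpr at -0.04, Hnrnpul1 at 0.00 and Hnrnpk, which binds cytosine-rich RNA, at 0.06. The 95% interval of Hnrnpk was -0.13 to 0.26 and that of Hnrnpr -0.24 to 0.16, so a decrease of the size seen for Hnrnph1 lay outside both. Hnrnpl was lower in the blocked fit. Without control replicate 1, the hnRNP genes that passed were 7 instead of 12.

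**Figure D3:**
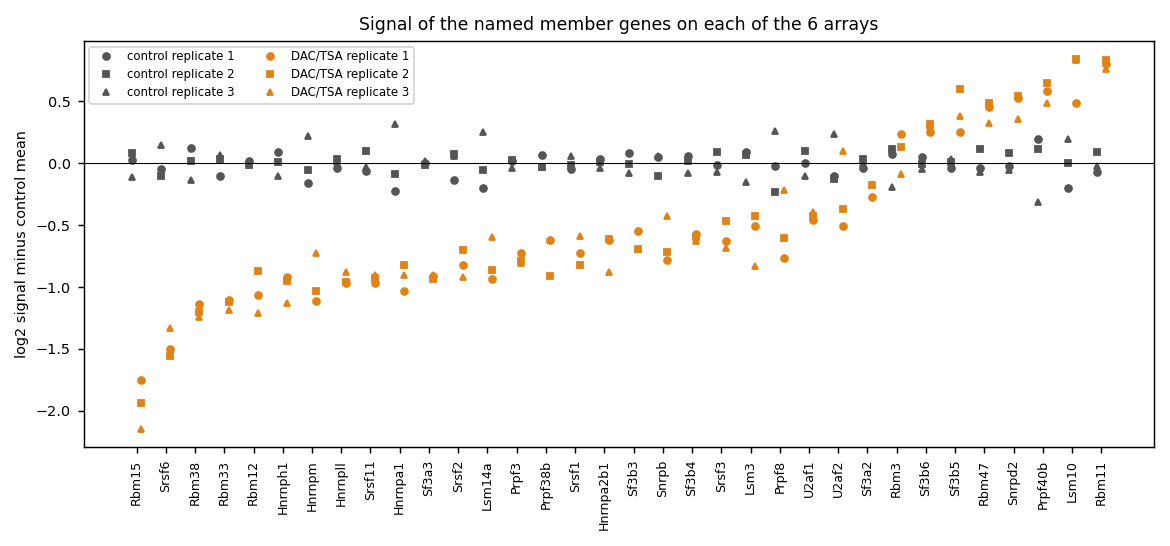
Log2 signal of the 34 named genes of these families on each of the 6 arrays, as the difference from the gene's mean over the control arrays (grey: control, orange: DAC/TSA, with a marker for each replicate number). Genes are ordered by their measured difference from Rbm15 on the left, with Rbm11, not detected in control cells, drawn last, and the groups overlap for Prpf8, U2af2 and Rbm3.

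The SF3a and SF3b complexes belong to the U2 snRNP and hold it at the branch point. Sf3a3, a subunit of SF3a, had log2 signals of 11.66, 11.65 and 11.68 in control cells and 10.76, 10.73 and 10.76 after DAC/TSA, a change of -0.91 ± 0.08 (SE, n = 3 per group; adjusted p = 1.32e-06, limma). The replicates of each group lay within an SD of 0.02. Of the SF3b subunits, Sf3b3 had 11.52, 11.43 and 11.36 against 10.89, 10.74 and 10.74 (-0.65 ± 0.09, adjusted p = 5.56e-05). Sf3b4, which contacts RNA upstream of the branch point, had 11.34, 11.30 and 11.21 against 10.71, 10.69 and 10.66 (-0.60 ± 0.08, adjusted p = 6.65e-05). Neither gene had overlapping groups, and Sf3b2 was lower too, at -0.42 ± 0.10. Sf3b5 and Sf3b6 went the other way on their brightest probes. Sf3b5 had 10.07, 10.12 and 10.15 against 10.36, 10.71 and 10.49, an increase of 0.41 ± 0.10 (adjusted p = 0.00378), and DAC/TSA replicate 2 was its highest array. Sf3b6, also called p14, which contacts the branch point adenosine, had 6.15, 6.10 and 6.06 against 6.36, 6.42 and 6.40 (0.29 ± 0.08, adjusted p = 0.00968). Its groups did not overlap, but the other probe of Sf3b6 was lower, as described below with the other probes. Leaving out 1 array ended the call of Sf3b5 for control replicate 1, control replicate 2 and DAC/TSA replicate 2 (adjusted p = 0.0177, 0.0138 and 0.0262), and that of Sf3b6 for each of the 6 arrays, with adjusted p from 0.0188 to 0.0393. Sf3a1 at -0.15 and Sf3a2 at -0.21 did not pass. Sf3a2 was detected on 2 control arrays and 0 DAC/TSA arrays, so that its level after DAC/TSA is only a bound. Taken from the group means and without an error, that bound was 1.06-fold below control, and no decrease is claimed for Sf3a2.

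U2AF recognises the end of the intron with 2 subunits. U2af1, the small subunit, which reads the AG at the 3′ splice site, had log2 signals of 7.91, 8.004 and 7.81 in control cells and 7.44, 7.48 and 7.51 after DAC/TSA (-0.43 ± 0.09, SE, n = 3 per group; adjusted p = 0.00121, limma). Each DAC/TSA array was below each control array. U2af2, the large subunit, which binds the polypyrimidine tract, had 7.03, 6.999 and 7.37 against 6.62, 6.76 and 7.23 (-0.26 ± 0.15, adjusted p = 0.155). Replicate 3 was the highest array in both groups and made them overlap. Blocking on the replicate number gave U2af2 an adjusted p of 0.00788, and without DAC/TSA replicate 3 its change was -0.44 with an adjusted p of 0.00438. U2af1l4, a relative of U2af1, was at 0.09 and did not pass.

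Of the Prpf proteins, Prpf3, a protein of the U4/U6 snRNP, had log2 signals of 11.17, 11.18 and 11.12 in control cells and 10.43, 10.37 and 10.35 after DAC/TSA, a change of -0.77 ± 0.08 (SE, n = 3 per group; adjusted p = 6.37e-06, limma). Prpf38b fell by 0.72 ± 0.10 and Prpf18, a factor of the last catalytic step, by 0.43 ± 0.10. For these 3 genes the groups did not overlap. Prpf8, the large U5 protein at the catalytic centre, had 9.36, 9.15 and 9.64 against 8.62, 8.78 and 9.17, with DAC/TSA replicate 3 above control replicate 2. Its change of -0.53 ± 0.15 passed narrowly (adjusted p = 0.00849). Without control replicate 1, control replicate 3, DAC/TSA replicate 1 or DAC/TSA replicate 2 it did not pass, with adjusted p of 0.0236, 0.0307, 0.0416 and 0.0368. Prpf40b, related to the U1-associated Prp40 of yeast, rose from 8.24, 8.15 and 7.73 to 8.62, 8.69 and 8.52 (0.57 ± 0.12, adjusted p = 0.00167). Its lowest array was control replicate 3, and without DAC/TSA replicate 2 its adjusted p was 0.0102. The 5 Prpf genes that did not pass, Prpf38a, Prpf4, Prpf19, Prpf31 and Prpf6, all had changes below zero, from -0.43 to -0.16, and the first 4 of these were lower in the blocked fit.

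The Sm proteins form the ring that most spliceosomal snRNAs carry. Snrpb, which encodes SmB, had log2 signals of 12.37, 12.21 and 12.38 in control cells and 11.54, 11.61 and 11.89 after DAC/TSA, a change of -0.64 ± 0.11 (SE, n = 3 per group; adjusted p = 0.000242, limma). Snrpd2, which encodes SmD2 of the same ring, had 12.36, 12.46 and 12.33 against 12.92, 12.93 and 12.74, an increase of 0.48 ± 0.09 (adjusted p = 0.000682). The groups did not overlap for either gene, although they moved in opposite directions. Snrpf at -0.32, Snrpd1 at -0.29, Snrpd3 at -0.10, Snrpa, a U1 snRNP protein, at 0.01 and Snrpg at 0.18 did not pass. Snrpf and Snrpd1 were lower in the blocked fit.

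The LSm proteins form related rings, on U6 snRNA in the nucleus and on decaying mRNA in the cytoplasm. Lsm10, a protein of the U7 snRNP that processes the 3′ ends of histone mRNAs, had log2 signals of 8.01, 8.21 and 8.41 in control cells and 8.69, 9.05 and 9.04 after DAC/TSA, an increase of 0.72 ± 0.12 (SE, n = 3 per group; adjusted p = 0.000316, limma). All DAC/TSA arrays were above all control arrays. Lsm11, its partner in the U7 snRNP, was at 0.04 and did not pass, but it was detected on only 1 of 3 control arrays. Lsm14a, a protein of cytoplasmic P bodies, had 9.90, 10.04 and 10.35 against 9.16, 9.23 and 9.50 (-0.80 ± 0.13, adjusted p = 0.000163). Lsm3, a member of both LSm rings, had 10.74, 10.72 and 10.50 against 10.15, 10.23 and 9.82 (-0.59 ± 0.12, adjusted p = 0.000874). Replicate 3 was the highest array of each group for Lsm14a and the lowest of each for Lsm3. The other 8 LSm genes did not pass and ranged from -0.31 for Lsm8 to 0.29 for Lsm4. In the blocked fit Lsm8 and Lsm5 were lower and Lsm4 was higher.

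The Rbm genes included the largest decrease of all 89. Rbm15, which recruits the enzyme complex for N6-methyladenosine to RNA, had log2 signals of 9.72, 9.77 and 9.59 in control cells and 7.94, 7.76 and 7.55 after DAC/TSA. This was a 3.85-fold decrease, -1.94 ± 0.11 (SE, n = 3 per group; adjusted p = 2.74e-08, limma). The groups did not overlap, and no other gene of these families had as large a decrease. Rbm38, a p53 target that stabilises mRNAs of cell cycle inhibitors, had 9.93, 9.83 and 9.67 against 8.67, 8.61 and 8.57 (-1.19 ± 0.09, adjusted p = 4.57e-07). Rbm33 had 10.97, 11.10 and 11.14 against 9.96, 9.95 and 9.88 (-1.14 ± 0.09, adjusted p = 3.85e-07). Rbm12 had 8.33, 8.30 and 8.32 against 7.25, 7.45 and 7.11 (-1.05 ± 0.10, adjusted p = 2.09e-06). The groups did not overlap for any of these, and the control arrays of Rbm12 lay within an SD of 0.02. Rbm8a, the Y14 protein of the exon junction complex, fell by 0.98 ± 0.10, and Rbm42, Rbm18, Rbm48 and Rbm26 fell by 0.71, 0.66, 0.57 and 0.45.

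Rbm11, a splicing regulator known mainly from brain and testis, had log2 signals of 5.19, 5.36 and 5.24 in control cells, where it was detected on 0 of 3 arrays, and 6.07, 6.10 and 6.03 after DAC/TSA, where it was detected on all 3. It was at least 1.21-fold higher (adjusted p = 6.84e-06, limma), a bound that takes the lowest detected signal of each control array where the probe was dimmer. A gene silent in control cells was measured here only if it was detected after DAC/TSA, so Rbm11 could enter in no other direction. Rbm47, a cofactor of mRNA editing by Apobec1, had 6.62, 6.77 and 6.59 against 7.12, 7.15 and 6.99 (0.42 ± 0.09, adjusted p = 0.00177). Its groups did not overlap, but without DAC/TSA replicate 2 its adjusted p was 0.0118. Rbm3, the cold-inducible RNA-binding protein, had 6.78, 6.82 and 6.51 against 6.94, 6.83 and 6.62 (0.09 ± 0.11, 95% interval -0.15 to 0.34, adjusted p = 0.507). Its groups overlapped, with replicate 3 the lowest in both. The other 12 Rbm genes that did not pass ranged from -0.42 for Rbm19 to 0.33 for Rbm45, and of these Rbm19, Rbm6 and Rbm39 were lower and Rbm4 and Rbm45 higher in the blocked fit.

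**Figure D4:**
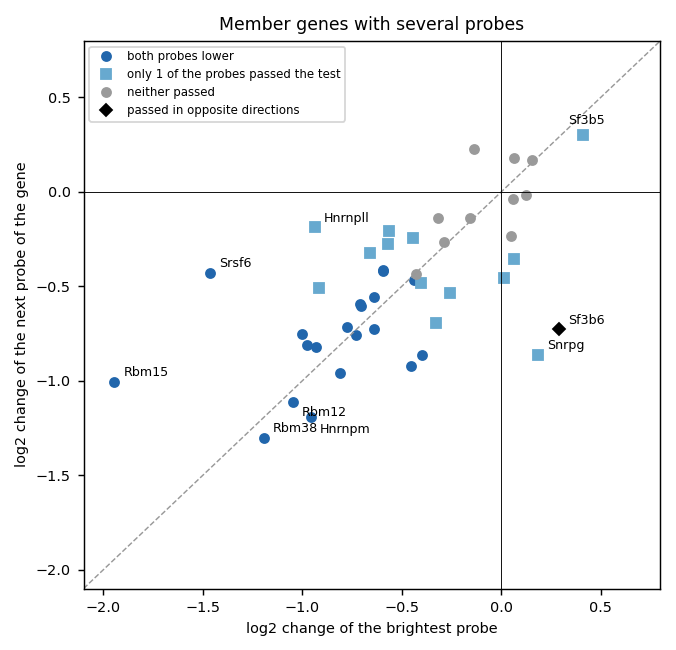
Log2 change (DAC/TSA minus control) of the brightest probe of a gene (x axis) against that of its next probe (y axis), for the 44 genes with several probes; the dashed line marks equal changes. Sf3b6 is the gene whose probes passed in opposite directions, at 0.29 and -0.73.

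Of the 89 genes, 44 had several tested probes, and all probes of a gene had the same sign in 35 of them, against 2503 of 3145 genes in the whole set, a like share. Of 26 genes whose brightest probe was lower, the next probe was also lower in 20 (76.9%) and had a change below zero in all 26. Over all genes with several probes the next was also lower in 568 of 897 (63.3%) and had a change below zero in 824 of 897. Probes of a gene read separate stretches of sequence and can report different transcripts. For Rbm15 both probes were lower, at -1.94 and -1.01, as for Srsf6 at -1.46 and -0.43 and for Rbm38 at -1.19 and -1.30. Each of the 3 probes of Snrpb (-0.64, -0.72 and -1.03) and of Hnrnpm (-0.96, -1.19 and -1.05) was lower. For Hnrnpll the next probe was at -0.19 and did not pass.

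Some genes gave a different answer on another probe. Sf3b6 was the only one of the 44 genes with opposite calls, which 65 of 3145 genes showed over the whole set. Its less bright probe had log2 signals of 6.46, 6.51 and 6.45 in control cells and 5.72, 5.78 and 5.75 after DAC/TSA, where it was detected on 2 of 3 arrays (-0.73 ± 0.08, adjusted p = 1.0e-05, limma). In control cells this probe was the brighter one, against 6.15, 6.10 and 6.06 for the other. Brightness was taken over all 6 arrays, so the choice of probe for Sf3b6 was not independent of the change. Both probes kept their groups apart, so the direction for Sf3b6 depended on the probe, and the mean of its probes was -0.22 and did not pass. Of 16 genes whose brightest probe did not pass, 6 had a next probe that was lower and 0 had one that was higher, against 155 and 112 of 1359 such genes in the whole set. Snrpg had 0.18 and -0.86, Snrpa 0.01 and -0.46, and Hnrnpk 0.06 and -0.36. The third probe of Lsm1 was lower, at -0.46, while its other probes were at 0.15 and 0.17. Which transcripts these probes read, and whether they bind transcripts of related genes or pseudogenes, was not tested.

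Splicing genes whose names fall outside the rule had similar shares. Of 137 such genes on 4 lists, 112 were measured, of which 56 (50%) were lower and 8 (7.14%) higher, with a median of -0.34. Over all genes tested 25.8% were lower and 27.0% higher. Median scaling left 20 lower and 4 higher, against 9.33% and 15.3% of all genes. Of those named here Sart3, Snrnp25, Rbfox2, Gemin4 and Gemin7 then did not pass. Among the regulators of alternative splicing, Luc7l3, a U1-associated protein, had log2 signals of 9.94, 9.99 and 10.42 in control cells and 8.71, 8.80 and 9.11 after DAC/TSA (-1.25 ± 0.14, SE, n = 3 per group; adjusted p = 7.42e-06, limma). Syncrip (hnRNP Q) fell by 1.11 and Fubp1, which binds the far upstream element of Myc, by 1.06. Cirbp, a cold-inducible protein like Rbm3, rose by 0.76 ± 0.11 and Rbfox2, a regulator of tissue-specific exons, by 0.39 ± 0.09, although Rbfox2 was at 0.04 with the mean of its probes and had an adjusted p of 0.0106 without control replicate 3. Of the SR-related proteins, Scaf8 and Scaf4, which bind the tail of RNA polymerase II, fell by 1.27 and 1.10, and Tra2a, an activator of exons, by 0.89.

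The remaining lists hold further snRNP proteins and the factors that assemble them. Cwc22, which loads the exon junction complex, fell by 1.06, and Sart3, which recycles U6, and Sf1, the branch point-binding protein, each fell by 0.72. The 3 genes of the snRNP list that rose, Zmat5 (1.07 ± 0.11), Snrnp35 (0.65 ± 0.09) and Snrnp25 (0.51 ± 0.09), all encode proteins of the U11/U12 snRNP of the minor spliceosome. Of the other U11/U12 genes measured, Snrnp48 was lower (-0.58 ± 0.10) and Zcrb1 was at 0.19 and did not pass. Among the genes of snRNP assembly and the exon junction, Upf2 and Upf1, factors of nonsense-mediated decay, fell by 0.999 and 0.98, and Wdr77, a partner of the Sm-methylating enzyme, by 0.92. The 3 that rose all belong to the SMN complex, which loads Sm rings: Gemin6 from 9.05, 8.98 and 8.81 to 10.38, 10.26 and 9.99 (1.27 ± 0.11, adjusted p = 1.27e-06, limma), Gemin4 by 0.33 and Gemin7 by 0.32. Smn1 and Ddx20 of the same complex were lower, at -0.86 and -0.73, and Gemin5, Gemin8 and Gemin2 at -0.34, -0.28 and -0.22 did not pass, the last being detected on 0 DAC/TSA arrays. Snrnp48, Zcrb1, Smn1, Ddx20, Gemin5, Gemin8 and Gemin2 were added after their values were seen. Gemin4 did not pass without any 1 of control replicates 1, 2 and 3 and DAC/TSA replicates 1 and 2, and the same held for Gemin7, with adjusted p from 0.0114 to 0.0315.

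Promoter windows were found for 76 of the 89 genes (85.4%), the others being Hnrnpll, Hnrnpul2, Lsm1, Lsm4, Lsm12, Prpf18, Rbm3, Rbm8a, Sf3b4, Sf3b5, Snrpb, Snrpd1 and U2af2. They held between 4 and 52 CpGs, with a median of 25, against 23 for all tested genes. The median was 27 for the genes that were lower, 21.5 for those that were higher and 24.5 for those that did not pass. Over all tested genes it was 24 for those lower and 21 for those higher, in the same order. Fewer than 10 CpGs were found in 1 of the 76 windows, that of Rbm41, against 12.0% of tested genes and 56.5% of all 32851 windows. Hnrnpa0, which was lower, had the 52.

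**Figure D5:**
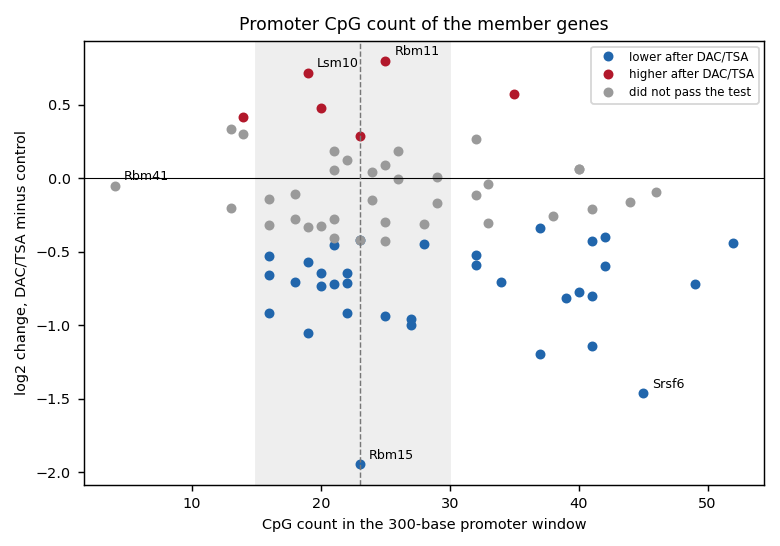
Log2 change (DAC/TSA minus control, y axis) against the number of CpGs in the 300-base promoter window (x axis) for 76 genes, coloured by call; the dashed line and grey band are the median and middle quartiles of all tested genes. Lower genes lie at 16 to 52 CpGs and higher genes at 14 to 35.

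The windows were searched on both strands for 6 short motifs. Those of ETS factors, NRF1, ZBTB33 and the E-box hold CpGs themselves and may overlap each other. TCTCGCG, the letters of a ZBTB33 (Kaiso) motif, were found in 14 of the 76 windows (18.4%), against 6.24% of tested genes and 2.56% of all windows. They were in 9 of 34 windows of genes that were lower (26.5%), among them Rbm15, Rbm38, Srsf3 and Srsf4. They were in 5 of 36 windows of genes that did not pass (13.9%) and in 0 of 6 of genes that were higher. The 6 windows are too few to read the 0 as a difference. Over all tested genes the shares were close, at 7.17% for those lower, 5.64% for those higher and 6.08% for those that did not pass. The window of Rbm15 printed above holds these letters. CCGGAAG (an ETS motif) was found in 23.7% of the windows against 20.4% of tested genes and 8.86% of all windows, GCATGCG (an NRF1 motif) in 6.58% against 6.99% and 3.58%, and AAGATGG (a YY1 motif) in 6.58% against 8.08% and 6.34%. TATAAA was found in 9.21% against 6.48% and 13.6%, and CACGTG, an E-box, in 10.5% against 10.8% and 7.15%. TCTCGCG was singled out after all 6 shares were known, no test was made of it, and binding was not measured.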

How the data were processed

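RNA of 3 control and 3 DAC/TSA cultures of RVP3 cells was measured on Illumina Mouse WG-6 arrays. Groups and replicate numbers came from the sample labels. The authors deposited probe intensities on a linear scale for 45281 probes, each with a detection p-value per array, and a table of log2 values for 15131 probes. Per the study's methods, signals were extracted with BeadStudio, normalised by quantiles and tested with limma, which the submitters' processing notes also name. Quantile normalisation of the log2 intensities was computed here from the deposited signals and matched the deposited log2 table to within 5e-14.

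Probes with a detection p-value of 0.01 or less on at least 1 array were kept (16760). Groups were compared two-sided with lmFit and eBayes of limma 3.58.1 under R 4.3.3, without covariates. P-values were adjusted over the 16760 probes by Benjamini-Hochberg, at a threshold of 0.01. "Lower", "higher", "fell" and "rose" are used of genes past it. Errors are standard errors of the fit, and p-values reflect only the variation among cultures of 1 line. The fits were tested on simulated data. A gene's brightest probe by mean log2 signal stood for it. Signals are not comparable between probes. Names came from the platform annotation, updated through gene identifiers. Tested probes with no name were 3634. Where RefSeq gave a gene several promoter windows, the one with most CpGs was used. The named genes are, per family, up to 3 genes with the largest change in each direction, every gene changed at least 2-fold, every gene detected on no array of a group or with opposite probes, and a fixed set of well-known genes, with up to 3 per direction from each list of other splicing genes. The families, lists and named genes were chosen with earlier results of these data known. A gene undetected in a group has a bound, for which a signal dimmer than an array's lowest detected signal was raised to that.

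Same-numbered control and DAC/TSA arrays deviated together, with correlations of 0.34, 0.24 and 0.65 for replicates 1, 2 and 3. The labels do not say what a number stands for, and control replicate 2 correlated better with DAC/TSA replicate 1 (0.37). The fit with the number as a block was run as an alternative. The others were median scaling, background correction, 3 filters, an intensity trend, the mean of a gene's probes, a threshold of 0.05 and the omission of arrays. The files give no slide or scan. Precision is limited by the number of arrays.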

Additional observations from a re-analysis of the deposited data

How the results depend on the processing

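None of the 47 calls turned to the opposite direction under any alternative, although Sf3b6 changed sign with the mean of its probes. Snrpg, at 0.18 and not called on its brightest probe, passed as lower with the mean of its probes. Median scaling in place of quantile normalisation kept 20 of 47 calls, with 18 genes lower and 2 higher. The median standard error was then 0.148 against 0.1, and 2 of the 89 genes changed sign. Over all genes median scaling gave 1336 higher and 815 lower (62.1% of calls higher, against 51.1%). By family it left 4 hnRNP genes lower, 1 SF3, 0 U2AF, 0 Snrp, 1 LSm and 1 Prpf, and 0 SF3, 0 Snrp, 0 LSm and 1 Rbm higher. Of the other splicing genes it gave 20 lower and 4 higher. The cause was not tested. With the replicate number as a block all 47 calls were kept and 13 lower and 4 higher were gained, which gave 11 higher in all, 2 U2AF, 3 Snrp, 4 LSm and 8 Prpf genes lower, and 1 SR, 2 LSm and 4 Rbm genes higher. Of the genes chosen by the naming rule, the block changed the call of U2af2. Over all genes, 32.8% were then lower and 32.5% higher. The threshold of 0.05 gave 50 lower and 11 higher (32.6% and 32.4% of all genes), with 3 Snrp, 4 LSm and 7 Prpf genes lower, and 1 SR, 2 LSm and 4 Rbm genes higher. Background correction with neqc gave a median of -0.37 and 1 SF3 gene higher. An intensity trend gave 1 SF3 and 2 LSm genes higher. The mean of a gene's probes gave 1 SF3 and 2 LSm genes higher and 2 Snrp genes lower, and Sf3b6 at -0.22 (adjusted p = 0.0224, limma) instead of 0.29.

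Leaving out arrays, including replicate 3 of both groups, which was chosen after seeing the data, gave 32 to 46 genes lower (21.1% to 29.1% of all genes) and 4 to 7 higher (22.9% to 29.2% of all genes; 4 without DAC/TSA replicate 2), with a median from -0.37 to -0.31. The other splicing genes had 45 to 64 lower and 5 to 9 higher (5 without control replicate 3). Lower genes numbered 7 to 12 of the hnRNPs (7 without control replicate 1), 1 to 2 of U2AF (2 without DAC/TSA replicate 3), 1 to 2 of Snrp (2 without DAC/TSA replicate 2) and 3 to 7 of Prpf (7 without replicate 3 of both groups). Higher genes numbered 0 to 1 of SR (1 without DAC/TSA replicate 1), 0 to 1 of SF3 (0 without control replicate 1, control replicate 2 or DAC/TSA replicate 2) and 0 to 1 of Prpf (0 without DAC/TSA replicate 2). Over the named genes, 31 of 54 kept direction and call throughout, and 801 of 863 values did. Signal near background limits Rbm11 and Sf3a2. It also limits Lsm11 and Rbm10, detected on 1 and 2 control arrays, and Rbm39 and Prpf31, detected on 1 and 2 DAC/TSA arrays.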
